A study of Mus musculus with 16 samples.

Results

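Matrix metalloproteinases (MMPs) are zinc-dependent endopeptidases that cut collagens, elastin, proteoglycans and other proteins of the extracellular matrix. They are made as inactive proenzymes, are activated by removal of a propeptide, and are held in check by tissue inhibitors of metalloproteinases (TIMPs). In the aortic wall they are known for remodelling the matrix around smooth muscle cells and adventitial fibroblasts, and infiltrating macrophages can add further members. The genes described here are 10 secreted or membrane-bound members of the family, chosen by gene symbol as the rows named Mmp2, Mmp3, Mmp9, Mmp11, Mmp12, Mmp13, Mmp14, Mmp15, Mmp17 and Mmp19 among 52636 genes. All 10 were among the 17125 genes that passed the filter on low counts.

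Total RNA of the descending thoracic aorta was sequenced in 16 libraries, 4 per group, from mice of the inbred strains C57BL/6J and 129S6/SvEvTac. In each strain, mice with hypertension induced by angiotensin II (AngII), the effector peptide of the renin-angiotensin system, were set against control mice. The 4 groups are called C57BL/6J AngII, C57BL/6J control, 129S6/SvEvTac AngII and 129S6/SvEvTac control. No other allele or agent is named for any group, and neither the AngII dose and its duration nor the age of the mice is stated in what was used here. Since no label ties each library to its own animal, the p-values reflect sample-to-sample spread that could be technical. Every value comes from the whole tissue, in which fewer cells of a type and less RNA per cell cannot be told apart.

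Library totals lay between 42116120 and 61381134 counts in 15 libraries, and 129S6/SvEvTac AngII replicate 5 held 121573945. The tissue label was checked against 8 smooth muscle markers (such as Acta2 and Myh11), all of which had counts in every group. Their summed level was 12601 to 29717 CPM in C57BL/6J AngII and 39077 to 42343 CPM in C57BL/6J control aortas, and 36656 to 46091 CPM in 129S6/SvEvTac AngII and 38382 to 41413 CPM in 129S6/SvEvTac control aortas. CPM are counts per 1000000 of each library's total, after scaling by the trimmed mean of M values (TMM).

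Mmp13, Mmp12 and Mmp3 lie in this order in an MMP gene cluster on chromosome 9 of the mouse genome build GRCm38, all on the plus strand, at chr9:7272514-7283331, chr9:7344381-7369499 and chr9:7445822-7455975. Mmp14 lies on chromosome 14, at chr14:54431612-54445364 on the plus strand. Promoter windows of 300 bases, from 250 before to 50 after the start of transcription, were available from RefSeq (GRCm38.p6) for 6 of the 10 genes. They were searched for the letters TGANTCA, which read alike on both strands and are the core bound by activator protein 1 (AP-1), the Fos and Jun dimer known from cultured cells to switch on several secreted MMPs. The letters were present in Mmp3, Mmp13 and 1 of the 2 Mmp12 windows, and were not in the windows of Mmp11, Mmp14, Mmp15 or the other start of Mmp12. Of 32851 promoter windows of the same length, 2565 (7.81%) held them. The 3 windows with the letters are shown with that of Mmp14, which lacks them, since these genes carry several of the changes described further on. Each is written 5′ to 3′ on the plus strand, with TGANTCA in capitals, which did not overlap either of the 2 other motifs searched.
Mmp3, chr9:7445572-7445871: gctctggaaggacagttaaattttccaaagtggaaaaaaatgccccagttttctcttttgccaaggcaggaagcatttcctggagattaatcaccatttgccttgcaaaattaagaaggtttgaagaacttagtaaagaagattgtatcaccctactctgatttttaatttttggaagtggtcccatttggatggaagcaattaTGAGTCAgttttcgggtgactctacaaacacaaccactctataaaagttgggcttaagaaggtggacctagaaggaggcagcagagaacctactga
Mmp12, chr9:7347124-7347423: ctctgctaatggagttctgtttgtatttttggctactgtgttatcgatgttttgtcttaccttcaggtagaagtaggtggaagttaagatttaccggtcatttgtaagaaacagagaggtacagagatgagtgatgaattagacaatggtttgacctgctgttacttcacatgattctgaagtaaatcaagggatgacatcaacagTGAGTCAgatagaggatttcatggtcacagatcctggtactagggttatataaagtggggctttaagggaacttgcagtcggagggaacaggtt
Mmp13, chr9:7272264-7272563: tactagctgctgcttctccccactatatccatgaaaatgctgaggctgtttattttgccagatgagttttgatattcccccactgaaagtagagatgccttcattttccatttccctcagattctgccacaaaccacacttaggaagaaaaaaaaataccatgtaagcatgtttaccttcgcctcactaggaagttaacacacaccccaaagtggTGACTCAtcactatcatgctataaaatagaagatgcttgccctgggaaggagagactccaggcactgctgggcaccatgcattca
Mmp14, chr14:54431348-54431647: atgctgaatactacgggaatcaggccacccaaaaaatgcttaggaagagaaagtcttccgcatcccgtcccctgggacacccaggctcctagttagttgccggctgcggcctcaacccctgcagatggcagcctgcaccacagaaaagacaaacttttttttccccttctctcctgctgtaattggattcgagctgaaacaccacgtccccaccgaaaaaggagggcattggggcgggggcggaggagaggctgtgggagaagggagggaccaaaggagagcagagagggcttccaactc

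Counted in bases from the annotated start of transcription, TGANTCA began at position -46 in Mmp3, -44 in Mmp12 and -35 in Mmp13. The letters TATAAA were also found on the plus strand in these windows of Mmp3, Mmp12 and Mmp13, and stand in 13.6% of all windows. They began at -7 in Mmp3, -16 in Mmp13 and, after the start, at 5 in Mmp12. All positions depend on the annotated starts, which were not tested. AGGAAG, a core of sites for ETS factors, was found on the plus strand once in Mmp3 and Mmp14 and at 2 places in Mmp13, and stands in 35.4% of all windows on one strand or the other. These are matches of letters only.

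The genes were first compared by length-scaled level, in CPM per kilobase of exon, which allows genes to be set against each other. In C57BL/6J AngII aortas Mmp2, gelatinase A, which cuts denatured and basement membrane collagens, had the highest level, with a mean of 136 and a range of 109 to 206 over the 4 libraries. Mmp3, stromelysin 1, which cuts proteoglycans and activates other proenzymes, came next at 67.0 (35.5 to 88.3), and its range took in that of Mmp14 at 53.7 (46.2 to 57.4). Mmp14 is membrane type 1 MMP, a transmembrane collagenase that activates the Mmp2 proenzyme. In C57BL/6J control aortas the order differed: Mmp3 led at 49.0 (39.1 to 66.4), ahead of Mmp2 at 37.0 (32.6 to 38.5) and Mmp17 at 36.5 (33.0 to 39.7). The range of Mmp17 overlapped that of Mmp2 and, at its upper edge, that of Mmp3. Mmp17 is membrane type 4 MMP, which is held to the cell surface by a glycosylphosphatidylinositol anchor and is known from mice as a regulator of smooth muscle maturation in the aorta.

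In the aortas of 129S6/SvEvTac mice Mmp2 and Mmp17 stood above the other 8 genes in both groups. With AngII, Mmp2 was at 74.5 (63.6 to 93.1) and Mmp17 at 65.3 (62.6 to 68.9) CPM per kilobase. In the controls, Mmp17 was at 45.1 (40.4 to 49.0) and Mmp2 at 42.0 (31.7 to 50.6) CPM per kilobase. The ranges of the pair overlapped in each group, so their order was not separated by the spread between libraries. Mmp3 and Mmp14 followed at 14.7 (11.5 to 18.8) and 12.8 (10.7 to 14.5) CPM per kilobase with AngII and at 14.1 (9.95 to 18.9) and 9.95 (8.68 to 12.6) in the controls, again overlapping. With the longest transcript in place of all exons as the length, Mmp14 stood above Mmp3 in C57BL/6J AngII (98.9 against 67.0), 129S6/SvEvTac AngII (23.6 against 14.7) and 129S6/SvEvTac control aortas (18.3 against 14.1). Mmp9, Mmp12 and Mmp13 had mean length-scaled levels of at most 1.40 in every group.

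The summed length-scaled level of the 10 genes was 311 ± 59.1 CPM per kilobase in C57BL/6J AngII and 149 ± 18.2 in C57BL/6J control aortas, and 181 ± 13.8 in 129S6/SvEvTac AngII and 123 ± 12.4 in 129S6/SvEvTac control aortas (SD, n = 4 each). Mmp17 held 7.86 ± 1.85% of that sum in C57BL/6J AngII and 24.6 ± 1.30% in C57BL/6J control aortas, but 36.3 ± 3.41% in 129S6/SvEvTac AngII and 36.8 ± 4.52% in 129S6/SvEvTac control aortas. Mmp14 held 17.6 ± 2.90% in C57BL/6J AngII and 9.64 ± 0.524% in C57BL/6J control aortas, and 7.07 ± 0.695% in 129S6/SvEvTac AngII and 8.06 ± 1.02% in 129S6/SvEvTac control aortas. The sums of the C57BL/6J AngII libraries (257 to 393) lay above those of the 129S6/SvEvTac AngII libraries (170 to 201), while the sums of the C57BL/6J controls (133 to 174) and the 129S6/SvEvTac controls (112 to 136) overlapped, and the sums were not tested. They leave out Mmp23, which is not among the 10 genes and had means of 49.1 to 57.6 CPM per kilobase in the 4 groups.

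**Figure D1:**
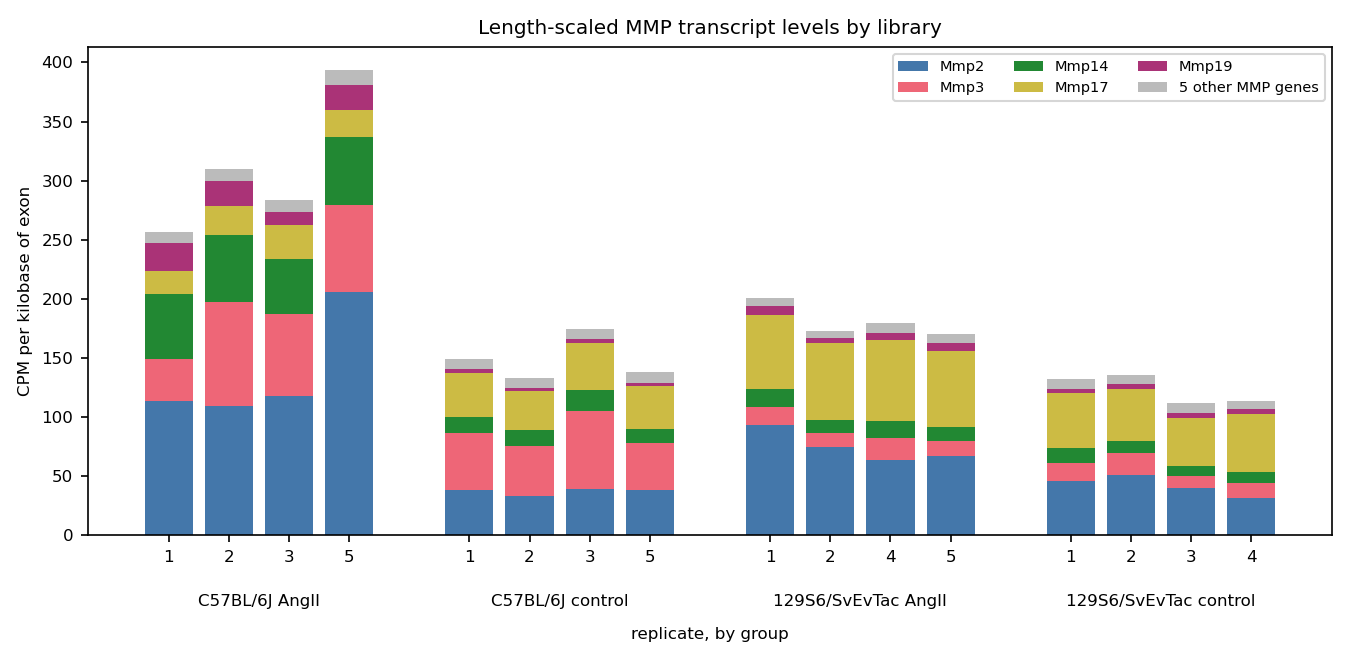
Length-scaled level of the MMP genes in each library, in CPM per kilobase of exon, stacked by gene, with libraries on the horizontal axis by group and replicate. The C57BL/6J AngII libraries sum to between 257 and 393, above every other library, and 129S6/SvEvTac libraries hold the widest Mmp17 segments.

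The first comparison asked how the MMP genes differed between hypertensive and control C57BL/6J aortas. In AngII aortas 5 of the 10 genes rose, Mmp2, Mmp14, Mmp19, Mmp12 and Mmp13, and 1 gene, Mmp17, fell (edgeR's quasi-likelihood test, Benjamini-Hochberg adjusted over 17125 genes, threshold 0.05). Of all genes tested, 21.8% rose and 17.1% fell, 38.9% in all. The median log2 fold change of the 10 genes was 1.17, against 0.01 over all genes tested. The 6 called genes were also those with no overlap between the AngII and control samples, which held in the higher direction for 19.2% and in the lower for 16% of all genes.

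Both genes of the activation pair at the cell surface rose. Mmp2 had 382, 368, 395 and 694 CPM in C57BL/6J AngII aortas, against 129, 110, 130 and 129 CPM in C57BL/6J control aortas. Every AngII sample lay far above every control sample, and AngII replicate 5 stood apart from the other AngII samples. Its fold change was 3.69 (log2 1.88 ± 0.20 SE, adjusted p = 7.65e-06). Mmp14 had 326, 337, 276 and 342 CPM with AngII, against 83.6, 80.5, 104 and 74.3 CPM in the controls, and both groups were tight. The gene was 3.75-fold higher with AngII (log2 1.91 ± 0.14, adjusted p = 6.41e-07).

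Mmp19, a secreted MMP that cuts basement membrane proteins, showed the largest called fold change of the 10. It had 84.5, 75.0, 40.0 and 73.7 CPM in C57BL/6J AngII aortas, against 11.0, 9.38, 12.2 and 10.8 CPM in C57BL/6J control aortas. AngII replicate 3 was the lowest of its group and still lay above all controls. The fold change was 6.29 (log2 2.65 ± 0.22, adjusted p = 1.04e-06). Of the 3533 exon bases of Mmp19, 789 are shared with Tmem198b on the opposite strand, and since the strand setting of the counting is not known, reads there could go to either gene. Tmem198b averaged 16.3 CPM in C57BL/6J AngII and 11.3 CPM in C57BL/6J control aortas (log2 0.52, adjusted p = 0.0189), and its part in the Mmp19 counts was not tested.

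The macrophage elastase Mmp12 and the fibrillar collagenase Mmp13, which stands in for collagenase 1 in much of mouse tissue remodelling, were low in level. Mmp12 had 4.24, 4.89, 13.3 and 10.1 CPM in C57BL/6J AngII aortas, against 1.21, 1.19, 2.87 and 1.37 CPM in C57BL/6J control aortas. All AngII samples lay above all controls, but the AngII samples spread widely. Mmp12 was 4.90-fold higher (log2 2.29 ± 0.86, adjusted p = 0.0466). Its adjusted p passed 0.05 when any one of C57BL/6J AngII replicates 2, 3 or 5, any of the 4 C57BL/6J controls, 129S6/SvEvTac AngII replicates 1 or 2, or 129S6/SvEvTac control replicates 2 or 4 was left out (0.0506 to 0.111), and also with DESeq2 (0.0725), without the filter on low counts (0.0861) and with library size alone as scaling (0.0547). Mmp13 had 1.57, 2.86, 3.07 and 5.95 CPM with AngII, against 0.788, 0.561, 0.962 and 0.563 CPM in the controls. The lowest AngII sample exceeded the highest control, and AngII replicate 5 was the highest. Mmp13 was 4.66-fold higher (log2 2.22 ± 0.66, adjusted p = 0.0144), and without AngII replicate 5 its adjusted p was 0.064.

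Mmp17 went the other way. It had 129, 161, 192 and 149 CPM in C57BL/6J AngII aortas, against 247, 219, 263 and 237 CPM in C57BL/6J control aortas. No AngII sample reached the lowest control. Mmp17 fell by 0.61 ± 0.11 on the log2 scale (1.53-fold lower, adjusted p = 0.000342).

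The remaining 4 genes did not pass the test in C57BL/6J aortas. Mmp3 had 64.0, 159, 126 and 133 CPM with AngII, against 85.6, 77.2, 120 and 70.4 CPM in the controls (log2 0.45 ± 0.26, adjusted p = 0.186). AngII replicate 1 lay below all controls while the other 3 AngII samples lay above them. Without AngII replicate 1, Mmp3 passed the test (log2 0.67, adjusted p = 0.0296). Mmp9, gelatinase B, a product of neutrophils and macrophages, averaged 4.01 ± 1.55 CPM with AngII and 4.95 ± 1.02 CPM in the controls (adjusted p = 0.459). Mmp11, stromelysin 3, which is activated inside the cell by furin, averaged 14.3 ± 1.82 and 13.2 ± 2.19 CPM in AngII and control aortas (adjusted p = 0.583). Mmp15, the transmembrane membrane type 2 MMP, averaged 10.2 ± 3.59 and 11.3 ± 2.55 CPM in AngII and control aortas (adjusted p = 0.595), with AngII replicate 1 at 15.1 CPM above its 3 companions at 7.51 to 10.4 CPM. Of Mmp11's 2778 exon bases, 155 are shared with the antisense gene Chchd10, which ranged from 4.26 to 113 CPM in C57BL/6J AngII and from 5.33 to 11.9 CPM in C57BL/6J control aortas, so its counts are also uncertain.

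**Figure D2:**
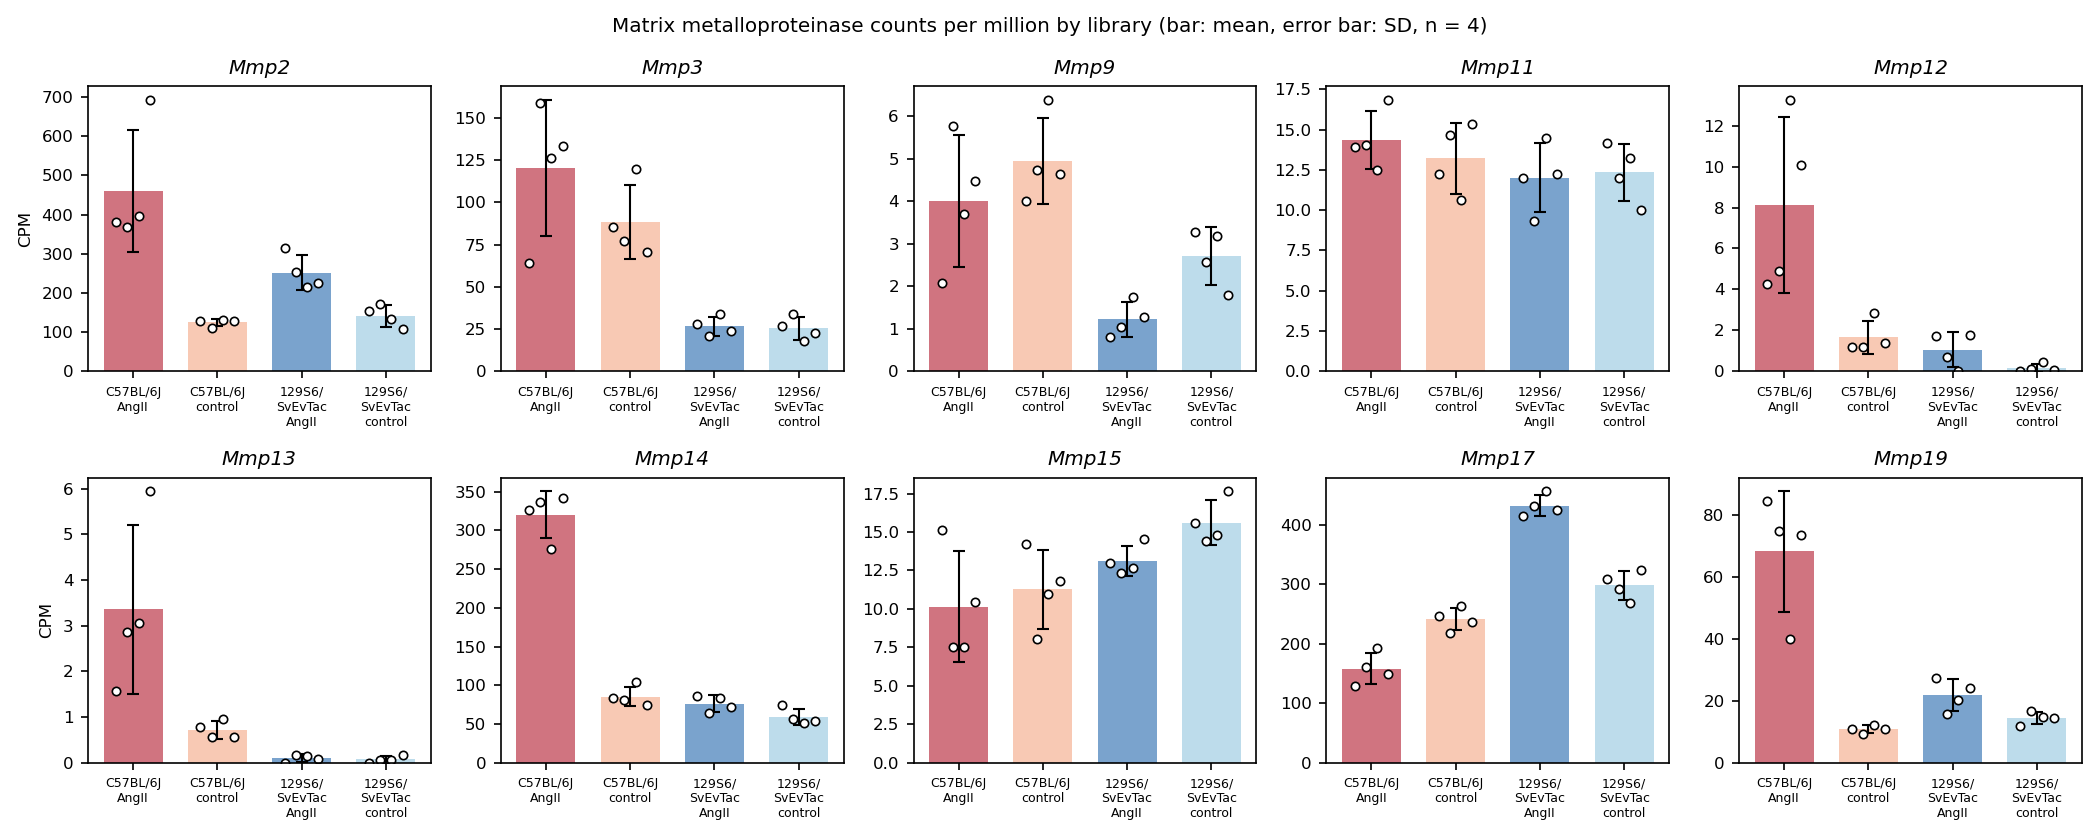
CPM of the 10 MMP genes by group, with 1 point per library, bars at the mean and error bars of 1 SD (n = 4), each panel on its own linear axis. Mmp2, Mmp14 and Mmp19 stand highest in C57BL/6J AngII aortas, and Mmp17 stands highest in 129S6/SvEvTac AngII and lowest in C57BL/6J AngII aortas.

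Markers of other cell types moved with these genes in C57BL/6J aortas. The counts below stand against 21.8% of all genes that rose and 17.1% that fell in this comparison. Of 12 macrophage markers, 11 rose with AngII and none fell, and their summed level was 1206 to 2287 CPM in C57BL/6J AngII and 445 to 575 CPM in C57BL/6J control aortas. Of the 8 smooth muscle markers, 7 fell. Of 8 adipocyte markers, 7 rose, and their sum ran from 172 to 3769 CPM in AngII and from 98.2 to 325 CPM in control aortas. Of 8 fibroblast markers, 3 rose and 1 fell (sums of 2459 to 4022 CPM with AngII and 1819 to 2088 CPM in controls), and of 6 mast cell markers, 5 rose (sums of 11.5 to 38.3 CPM with AngII and 5.09 to 11.6 CPM in controls). Of 9 neutrophil markers, 6 were tested, none rose and 1 fell, and their sums were 9.23 to 13.8 CPM with AngII (Ngp and Camp without counts) and 1.32 to 36.5 CPM in controls. In AngII replicates 1 and 5, which had the highest macrophage sums of 2059 and 2287 CPM, Mmp14 was at 326 and 342 CPM, Mmp19 at 84.5 and 73.7 CPM and Mmp12 at 4.24 and 10.1 CPM. In AngII replicate 3, which had the lowest macrophage sum of 1206 CPM, Mmp14 (276 CPM) and Mmp19 (40.0 CPM) were the lowest of their group and Mmp12 (13.3 CPM) was the highest. AngII replicate 2 had a macrophage sum almost as low, at 1253 CPM. Its Mmp14 (337 CPM) and Mmp19 (75.0 CPM) were each the second highest of the group, and Mmp12 was at 4.89 CPM. The order of these MMP values matched that of the macrophage sums in part only. The part of these cell types in the MMP values was not tested.

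The same comparison in 129S6/SvEvTac aortas gave 3 called genes. Mmp2 and Mmp17 rose with AngII and Mmp9 fell, against 7.71% of all genes that rose and 4.47% that fell, 12.2% in all. The median log2 fold change of the 10 genes was 0.39, against 0.00 over all genes. All 3 called genes had samples that did not overlap between the groups, a pattern seen in the higher direction in 12.4% and in the lower in 10.6% of all genes.

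Mmp2 had 314, 252, 214 and 225 CPM in 129S6/SvEvTac AngII aortas, against 154, 171, 134 and 107 CPM in 129S6/SvEvTac control aortas. The groups were separate, with AngII replicate 1 the highest and control replicate 4 the lowest. Mmp2 was 1.78-fold higher (log2 0.83 ± 0.20, adjusted p = 0.0129), and its adjusted p was 0.0577 without AngII replicate 1 and 0.0582 without control replicate 4. Mmp17 had 414, 432, 456 and 425 CPM with AngII, against 309, 291, 268 and 325 CPM in the controls. These were the tightest groups among the called genes, with a clear gap between them. The gene was 1.45-fold higher with AngII (log2 0.53 ± 0.11, adjusted p = 0.00428).

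Mmp9 had 0.812, 1.03, 1.76 and 1.27 CPM in 129S6/SvEvTac AngII aortas, against 3.28, 2.58, 3.19 and 1.80 CPM in 129S6/SvEvTac control aortas. The highest AngII sample and the lowest control sample nearly met. Mmp9 fell by 1.15 ± 0.31 on the log2 scale (2.22-fold lower, adjusted p = 0.0264). The call was lost without AngII replicate 1, 2 or 5 or without control replicate 1, 2 or 3, with adjusted p between 0.0511 and 0.0763.

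In 129S6/SvEvTac aortas Mmp19 and Mmp14 did not pass the test. Mmp19 had 27.5, 15.8, 20.3 and 24.0 CPM with AngII, against 12.0, 16.7, 14.8 and 14.4 CPM in the controls (log2 0.60 ± 0.21, adjusted p = 0.074). AngII replicate 2 fell among the controls and the other 3 AngII samples lay above them. Mmp19 passed with AngII replicate 2 left out (adjusted p = 0.0438), without C57BL/6J AngII replicate 3 (0.0181), with DESeq2 (0.0404) and in a fit of the 2 groups alone (0.0471). Tmem198b, its antisense neighbour, changed by log2 0.14 and did not pass (adjusted p = 0.649). Mmp14 had 86.3, 63.6, 84.0 and 71.5 CPM with AngII, against 74.8, 57.1, 51.7 and 53.6 CPM in the controls (log2 0.36 ± 0.14, adjusted p = 0.1). Control replicate 1 lay within the AngII samples, and without it Mmp14 passed the test (log2 0.47, adjusted p = 0.0389).

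Mmp12 and Mmp13 had few counts in 129S6/SvEvTac aortas, though Mmp12 reached 1.74, 0.707 and 1.77 CPM in AngII replicates 1, 2 and 5. Mmp12 had 77, 28, 0 and 203 counts with AngII, against 0, 7, 22 and 3 counts in the controls (log2 2.66 ± 0.98, adjusted p = 0.0915). A count of 0 allows up to 3 counts, which is 0.0659 CPM in AngII replicate 4 and 0.0678 CPM in control replicate 1. Mmp12 passed the test without AngII replicate 4 (log2 3.05, adjusted p = 0.0221) and without control replicate 3 (log2 3.91, adjusted p = 0.0478). Mmp13 had 0, 7, 7 and 9 counts with AngII, against 0, 3, 3 and 8 counts in the controls, so that a change was not detectable at this depth (log2 0.42 ± 0.82, adjusted p = 0.809). Mmp3 averaged 26.6 ± 5.73 CPM with AngII and 25.3 ± 6.87 CPM in the controls (adjusted p = 0.915). Mmp11 averaged 12.0 ± 2.12 and 12.3 ± 1.79 CPM in AngII and control aortas (adjusted p = 0.92), and Mmp15 13.1 ± 0.972 and 15.6 ± 1.45 CPM in AngII and control aortas (adjusted p = 0.493). None of the 12 macrophage or 8 smooth muscle markers was called in this comparison, and the macrophage sums were 302 to 550 CPM in 129S6/SvEvTac AngII and 230 to 411 CPM in 129S6/SvEvTac control aortas. None of the 6 neutrophil markers tested was called, and the sums over all 9 were 2.86 to 4.49 CPM with AngII (Ly6g and Camp without counts) and 1.75 to 4.01 CPM in the controls (Camp without counts).

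Whether the AngII effect differed between the strains was tested as the difference of the 2 log2 fold changes, C57BL/6J minus 129S6/SvEvTac. It passed for 4 of the 10 genes, higher in C57BL/6J for Mmp19, Mmp14 and Mmp2 and lower for Mmp17, against 5.34% of all genes with a higher and 4.62% with a lower effect, 9.96% in all. For Mmp19 the effects were 2.65 in C57BL/6J and 0.60 in 129S6/SvEvTac, a difference of 2.06 ± 0.29 (adjusted p = 0.00122). For Mmp14 they were 1.91 and 0.36 in C57BL/6J and 129S6/SvEvTac, a difference of 1.54 ± 0.19 (adjusted p = 0.000795). These 2 genes had the largest differences among the called members.

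Mmp2 rose in both strains, by 1.88 on the log2 scale in C57BL/6J and by 0.83 in 129S6/SvEvTac, a difference of 1.05 ± 0.28 (adjusted p = 0.0276). That call was lost when C57BL/6J control replicate 2, 129S6/SvEvTac AngII replicate 4 or 5, or 129S6/SvEvTac control replicate 1 or 2 was left out (adjusted p = 0.0502 to 0.066). Mmp17 was the member called in opposite directions, with log2 effects of -0.61 in C57BL/6J and 0.53 in 129S6/SvEvTac, a difference of -1.15 ± 0.15 (adjusted p = 0.000848). In CPM, AngII samples lay below all controls in C57BL/6J and above all controls in 129S6/SvEvTac. The calls for Mmp14, Mmp17 and Mmp19 held under all 23 alternative settings and omissions run for this comparison.

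For the other 6 genes no difference of effects was shown. Mmp13 had effects of 2.22 and 0.42 in C57BL/6J and 129S6/SvEvTac, but the difference of 1.81 ± 1.06 did not pass (adjusted p = 0.315). The Mmp9 effects of -0.30 and -1.15 in C57BL/6J and 129S6/SvEvTac gave a difference of 0.85 ± 0.44 (adjusted p = 0.242). Mmp3, Mmp11, Mmp12 and Mmp15 had differences between -0.37 and 0.38, with adjusted p of 0.566 or more. Among the markers, 9 of 12 macrophage genes had a higher and 7 of 8 smooth muscle genes a lower AngII effect in C57BL/6J, and their part in the 4 called differences was not tested.

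**Figure D3:**
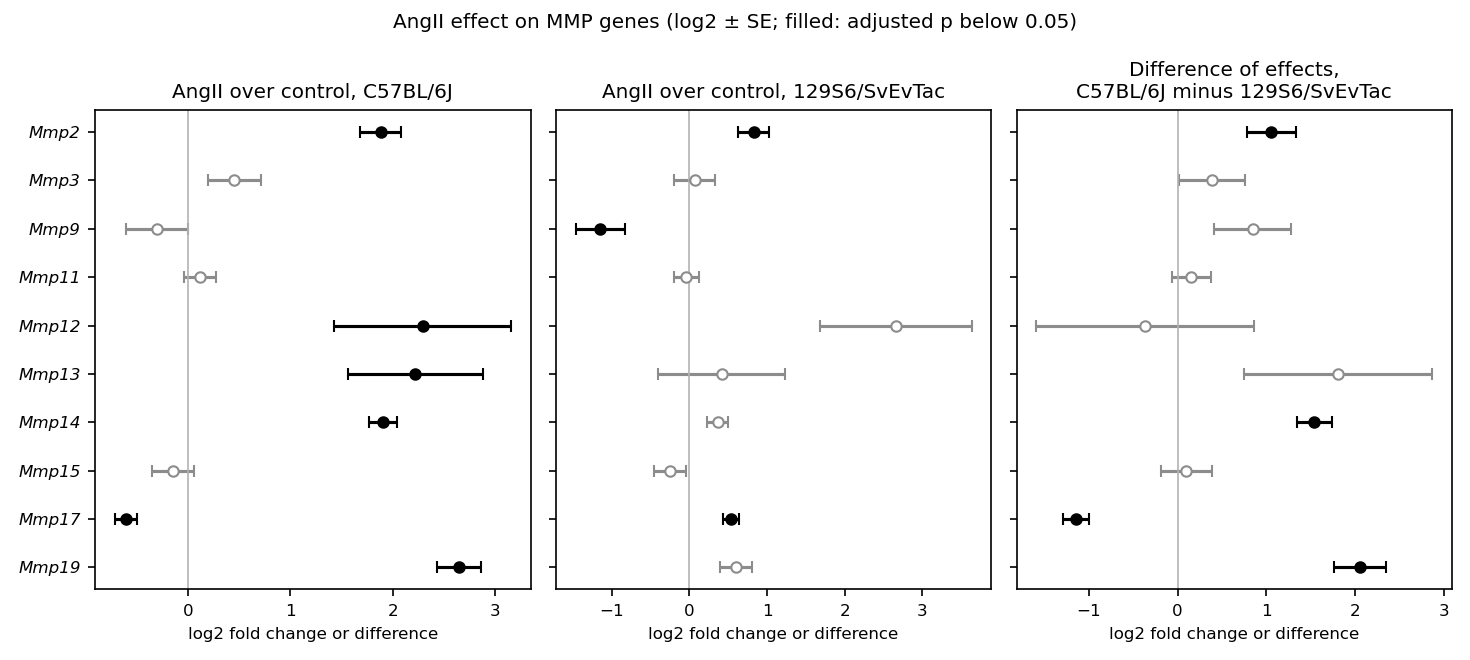
Log2 fold change of each MMP gene for AngII over control in C57BL/6J (left), in 129S6/SvEvTac (middle), and the C57BL/6J minus 129S6/SvEvTac difference of these effects (right), with error bars of 1 SE and filled points where the adjusted p is below 0.05. Mmp17 lies left of 0 at -0.61 in the first panel and right of 0 at 0.53 in the second.

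The strains were also compared directly within each treatment. In AngII aortas 7 of the 10 genes were higher in C57BL/6J and 1 was lower, against 16.8% of all genes higher and 14.6% lower, 31.3% in all. The median log2 difference of the 10 genes was 1.68, against 0.02 over all genes. The same 8 genes had samples that did not overlap between the strains, a pattern found in 14.7% of all genes in the higher and 12.3% in the lower direction. These values use the same AngII samples as the 2 treatment comparisons.

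The largest difference was at Mmp13, whose 1.57 to 5.95 CPM in C57BL/6J AngII aortas stood against at most 0.177 CPM in 129S6/SvEvTac AngII aortas (33.0-fold, log2 5.05 ± 0.78, adjusted p = 0.000186). Mmp13 reached the level of the filter on low counts only in C57BL/6J libraries, AngII and control alike. The filter thus let it in through the strain with the higher level, so its place among the called genes carries no independent weight. With 0, 7, 7 and 9 counts in the 129S6/SvEvTac AngII libraries, the size of the fold is uncertain. Its calls between the strains held under all 24 alternatives run, no filter included. Its neighbour Mmp12 was 7.59-fold higher in C57BL/6J AngII aortas (log2 2.92 ± 0.89, adjusted p = 0.0202), which no longer passed once 129S6/SvEvTac AngII replicate 2 was dropped (0.0539). Mmp3 was 4.54-fold higher, with 64.0 to 159 CPM in C57BL/6J AngII and 20.7 to 33.9 CPM in 129S6/SvEvTac AngII aortas (log2 2.18 ± 0.27, adjusted p = 2.94e-05). These 3 of the genes in the chromosome 9 cluster were higher in C57BL/6J, with no overlapping sample. Mmp27, another gene of the cluster, averaged 0.713 CPM in C57BL/6J AngII and 0.866 CPM in 129S6/SvEvTac AngII aortas and did not pass (log2 -0.27 ± 0.50, adjusted p = 0.729).

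Away from the cluster, Mmp14 was 4.19-fold higher in C57BL/6J AngII aortas than in 129S6/SvEvTac AngII aortas (log2 2.07 ± 0.14, adjusted p = 6.45e-08). Mmp9 was 3.28-fold higher (adjusted p = 0.000791), Mmp19 3.12-fold higher (adjusted p = 3.49e-05) and Mmp2 1.83-fold higher (adjusted p = 0.0035). Mmp17 was 2.73-fold lower in C57BL/6J (log2 -1.45 ± 0.11, adjusted p = 1.46e-07). The 2 genes that did not pass were Mmp11 (log2 0.25 ± 0.16, adjusted p = 0.239) and Mmp15 (log2 -0.37 ± 0.21, adjusted p = 0.192), and Mmp15 passed when C57BL/6J AngII replicate 1 was left out (log2 -0.60, adjusted p = 0.0204). Of the macrophage markers 11 of 12 were higher, and of the smooth muscle markers 7 of 8 were lower, in C57BL/6J AngII aortas, while 1 of 6 tested neutrophil markers was higher, and their part in these values was not tested.

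In control aortas 4 of the 10 genes were called, all higher in C57BL/6J, against 5.35% of all genes higher and 5.06% lower, 10.4% in all. The median log2 difference of the 10 genes was 0.31, against 0.00 over all genes. None of the 12 macrophage markers passed this test between the control groups, but their median log2 difference was 0.43. Their summed level was 445 to 575 CPM in C57BL/6J and 230 to 411 CPM in 129S6/SvEvTac control aortas, without overlap. The part of macrophages in these strain differences was not tested. Mmp3, Mmp12 and Mmp13 were again among those called, while Mmp27 averaged 0.705 CPM in C57BL/6J and 0.667 CPM in 129S6/SvEvTac control aortas (log2 0.08 ± 0.50, adjusted p = 0.958). Mmp3 had 85.6, 77.2, 120 and 70.4 CPM in C57BL/6J control aortas, against 27.0, 34.0, 17.9 and 22.4 CPM in 129S6/SvEvTac control aortas. The lowest C57BL/6J control was above the highest 129S6/SvEvTac control by a wide margin. Mmp3 was 3.48-fold higher in C57BL/6J (log2 1.80 ± 0.27, adjusted p = 0.000312), and it passed the test under all 24 alternatives run.

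Mmp13 had 0.561 to 0.962 CPM in C57BL/6J control aortas and at most 0.177 CPM in 129S6/SvEvTac control aortas (9.44-fold, log2 3.24 ± 0.76, adjusted p = 0.0116). Here too it was tested only because C57BL/6J libraries passed the filter, so its place among the called genes carries no independent weight. The 129S6/SvEvTac controls held 0, 3, 3 and 8 counts, which leaves the size of the fold uncertain. Without 129S6/SvEvTac control replicate 4 its log2 difference was 4.06 (adjusted p = 0.00788). Mmp12 had 1.19 to 2.87 CPM in C57BL/6J control aortas and at most 0.464 CPM in 129S6/SvEvTac control aortas (9.79-fold, log2 3.29 ± 0.98, adjusted p = 0.0445). That call rested on few counts: it was lost without C57BL/6J AngII replicate 2 or 5, any of the 4 C57BL/6J controls, 129S6/SvEvTac AngII replicate 1 or 2 or 129S6/SvEvTac control replicate 1, 2 or 4 (adjusted p = 0.0512 to 0.119), and without a filter on low counts (0.0871), while without 129S6/SvEvTac control replicate 3 its log2 difference was 4.55 (adjusted p = 0.0234).

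Mmp14 was 1.44-fold higher in C57BL/6J control aortas, at 74.3 to 104 CPM against 51.7 to 74.8 CPM in 129S6/SvEvTac control aortas (log2 0.53 ± 0.14, adjusted p = 0.0212). The ranges met at their edges, and the call was lost without C57BL/6J control replicate 3 (adjusted p = 0.0909) or without 129S6/SvEvTac control replicate 2 (0.0695), 3 (0.069) or 4 (0.0791). The samples of 6 genes did not overlap, higher in C57BL/6J for Mmp3, Mmp9, Mmp12 and Mmp13 (11.3% of all genes) and lower for Mmp15 and Mmp17 (11.0%). Of these, Mmp9 (log2 0.87 ± 0.31, adjusted p = 0.091), Mmp15 (log2 -0.47 ± 0.21, adjusted p = 0.183) and Mmp17 (log2 -0.31 ± 0.11, adjusted p = 0.0816) did not pass the test. Mmp9 passed with DESeq2 (0.0472) and in a fit of the 2 groups alone (0.0269). Mmp17 passed with library size alone (0.0443), with DESeq2 (0.047), in a fit of the 2 groups alone (0.0196) and without C57BL/6J AngII replicate 1 (0.029) or 3 (0.0271). Mmp2, Mmp11 and Mmp19 had log2 differences of -0.18, 0.10 and -0.42 (adjusted p of 0.252 or more), and in a fit of the 2 groups alone Mmp19 passed (0.0379).

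**Figure D4:**
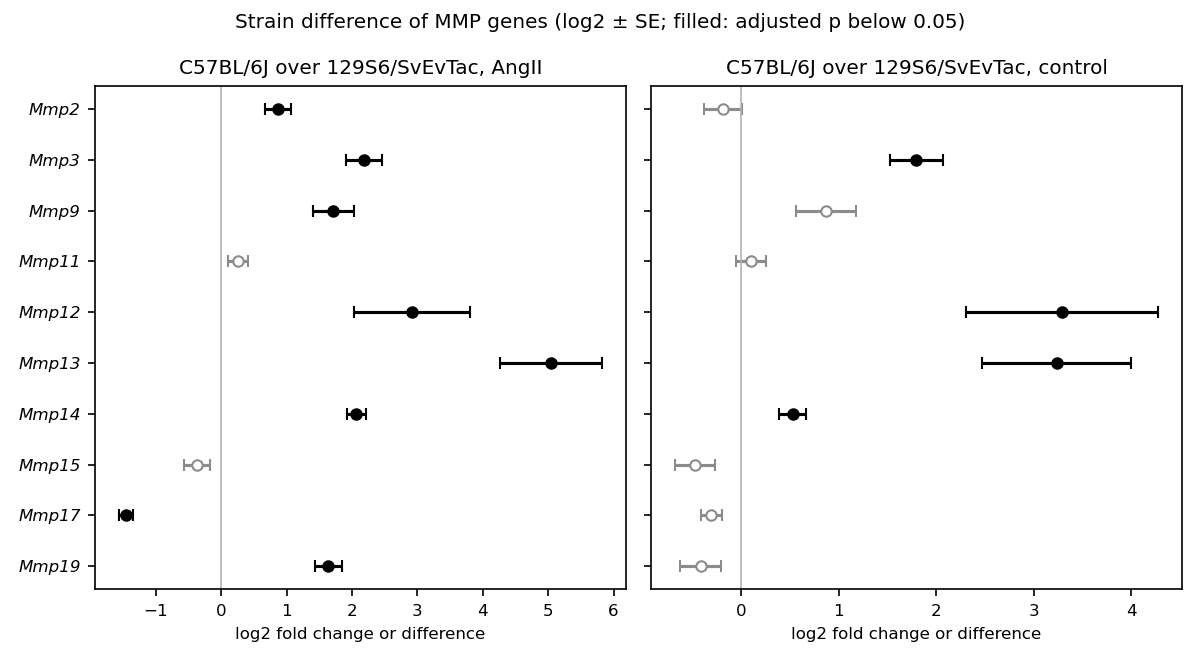
Log2 difference of each MMP gene for C57BL/6J over 129S6/SvEvTac in AngII aortas (left) and control aortas (right), with error bars of 1 SE and filled points where the adjusted p is below 0.05. The points of Mmp3, Mmp12 and Mmp13 lie between 1.80 and 5.05 in both panels, and Mmp17 lies at -1.45 with AngII and -0.31 in controls.

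Of 13 other mouse MMP genes, Mmp1a, Mmp1b, Mmp7, Mmp20 and Mmp21 had no counts in any library, and 7 of the 13 passed the filter. Mmp25, the membrane type 6 MMP of leukocytes, had 68, 36, 37 and 53 counts in C57BL/6J AngII aortas, against 0, 3, 8 and 0 counts in C57BL/6J control aortas. It passed the filter on low counts only through the C57BL/6J AngII group, so its test is not used. Mmp24, a membrane type MMP best known from the nervous system, had 45, 89, 57 and 272 counts in 129S6/SvEvTac AngII aortas, against 0, 5, 15 and 0 counts in 129S6/SvEvTac control aortas (adjusted p = 0.0326). Of the 6 others tested, Mmp24 was the only one called for AngII in either strain. The call was lost without AngII replicate 2, 4 or 5 or control replicate 1, 2 or 4 of 129S6/SvEvTac (adjusted p of 0.0507 to 0.0888). Mmp28, epilysin, had 25.2, 23.9, 30.7 and 29.9 CPM in C57BL/6J control aortas, against 8.14, 4.14, 7.41 and 5.79 CPM in 129S6/SvEvTac control aortas (log2 2.11 ± 0.31, adjusted p = 0.000236). The C57BL/6J controls were all above the 129S6/SvEvTac controls, and Mmp28 was also higher in C57BL/6J AngII than in 129S6/SvEvTac AngII aortas (log2 0.94 ± 0.30, adjusted p = 0.0242). The second difference did not pass without C57BL/6J AngII replicate 5 (adjusted p = 0.0727) or 129S6/SvEvTac AngII replicate 4 (adjusted p = 0.0703). It also did not pass in a fit of the 2 groups alone (0.081) or with a replicate block (0.0514). For AngII in C57BL/6J, Mmp28 did not pass (log2 -0.72 ± 0.29, adjusted p = 0.0656), but passed under 5 of 24 alternatives.

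Among the TIMPs, which bind and block the active enzymes, Timp1 moved most. It had 241, 540, 206 and 170 CPM in C57BL/6J AngII aortas, against 13.6, 12.9, 20.3 and 17.2 CPM in C57BL/6J control aortas, and 48.2, 29.7, 52.4 and 39.0 CPM in 129S6/SvEvTac AngII aortas, against 11.5, 13.5, 10.5 and 9.65 CPM in 129S6/SvEvTac control aortas. All AngII samples were above all controls in both strains, and C57BL/6J AngII replicate 2 was the highest. Timp1 rose 18.1-fold in C57BL/6J (log2 4.18 ± 0.34, adjusted p = 1.04e-06) and 3.75-fold in 129S6/SvEvTac (log2 1.91 ± 0.31, adjusted p = 0.00113), and the effects differed by 2.27 ± 0.43 (adjusted p = 0.00581).

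Timp2, which both inhibits MMPs and bridges Mmp14 to the Mmp2 proenzyme, rose in both strains, with log2 effects of 0.38 in C57BL/6J (adjusted p = 0.00177) and 0.34 in 129S6/SvEvTac (adjusted p = 0.0136) and a difference of 0.04 ± 0.12 (adjusted p = 0.866). The 129S6/SvEvTac effect did not pass without AngII replicate 1, 4 or 5 or control replicate 1, 3 or 4 (adjusted p of 0.0509 to 0.0739), nor with library size alone (log2 0.18, adjusted p = 0.186). Timp3, which binds to the matrix, rose by log2 0.33 in C57BL/6J (adjusted p = 0.00401) and 0.69 in 129S6/SvEvTac (adjusted p = 9.38e-05), and the difference of -0.36 ± 0.11 did not pass (adjusted p = 0.059), but passed with DESeq2 (0.0101), with a filter of 1 CPM in 4 libraries (0.0494) and without 129S6/SvEvTac AngII replicate 1 (0.0489). Timp4 had 10.1, 2.77, 3.92 and 5.44 CPM in C57BL/6J AngII aortas, against 18.0, 14.7, 23.3 and 12.5 CPM in C57BL/6J control aortas. It fell in C57BL/6J (log2 -1.62 ± 0.34, adjusted p = 0.00141), did not pass in 129S6/SvEvTac (log2 -0.14 ± 0.33, adjusted p = 0.845), and the difference did not pass (-1.48 ± 0.47, adjusted p = 0.0578). The Timp4 difference passed with DESeq2 (adjusted p = 0.0162), when C57BL/6J AngII replicate 1 was dropped (-1.90; 0.011) and with 129S6/SvEvTac AngII replicate 5 omitted as well (0.0168). Of the 8 inhibitors listed, 7 were tested, and 4 rose and 1 fell in C57BL/6J (21.8% and 17.1% of all genes) while 4 rose and none fell in 129S6/SvEvTac (7.71% and 4.47%).

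**Figure D5:**
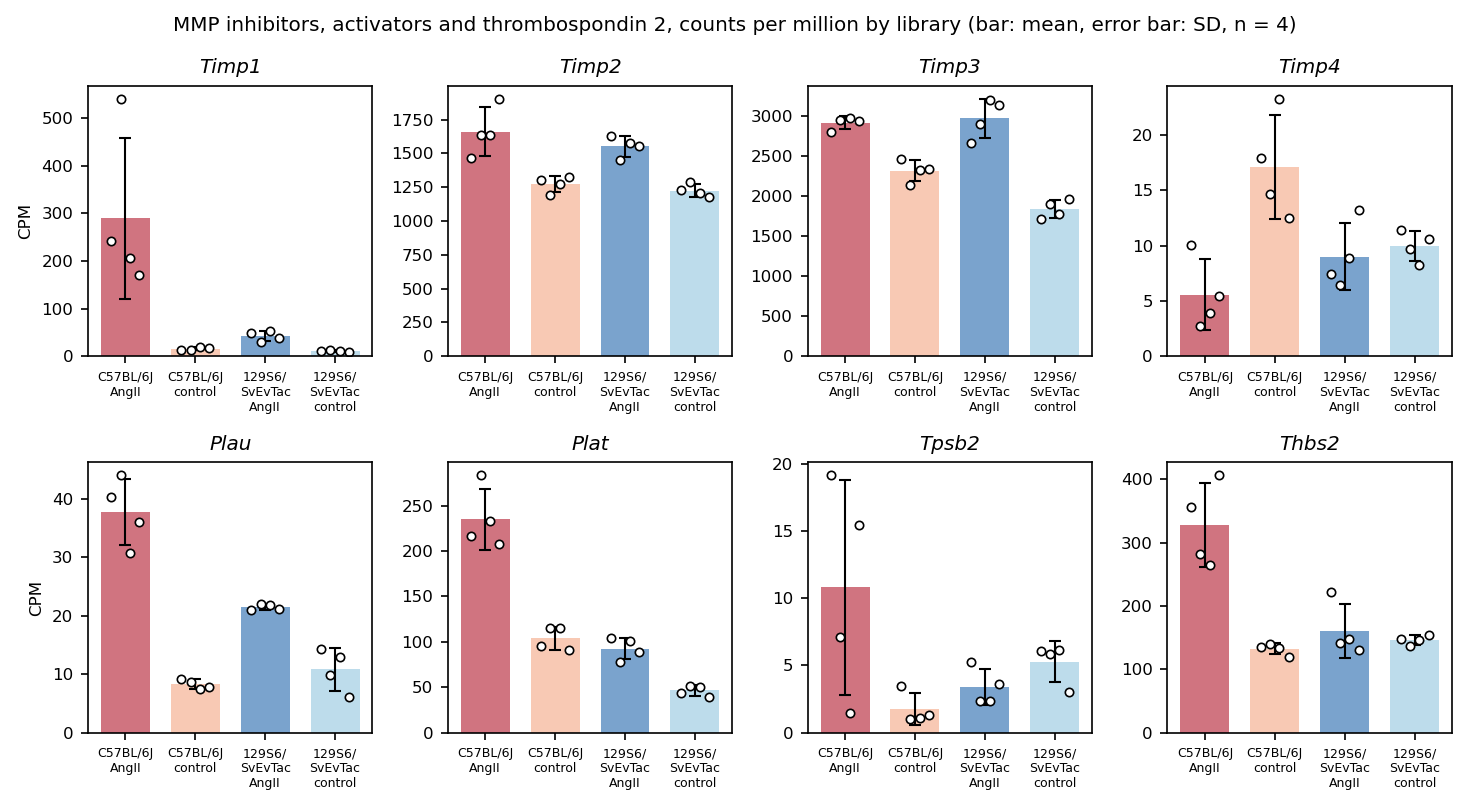
CPM by group of the 4 TIMP genes, of Plau, Plat and Tpsb2, which encode proteases that can activate MMP proenzymes, and of Thbs2, with 1 point per library, bars at the mean and error bars of 1 SD (n = 4). Timp1 reaches 170 to 540 CPM in C57BL/6J AngII aortas and 29.7 to 52.4 CPM in 129S6/SvEvTac AngII aortas.

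Of 13 genes for proteases that can activate MMP proenzymes, 11 were tested, and 7 rose in C57BL/6J (21.8% of all genes) and 4 in 129S6/SvEvTac (7.71%), with none lower (median log2 effects of 1.71 and 0.13, against 0.01 and 0.00 over all genes). Plau, the urokinase-type plasminogen activator, had 40.3, 44.0, 30.7 and 36.1 CPM in C57BL/6J AngII aortas, against 9.22, 8.76, 7.42 and 7.80 CPM in C57BL/6J control aortas. In 129S6/SvEvTac it had 21.1, 22.0, 21.9 and 21.2 CPM with AngII, against 14.4, 9.95, 13.0 and 6.10 CPM in the controls. The samples did not overlap in either strain, and the log2 effects of 2.19 in C57BL/6J and 0.99 in 129S6/SvEvTac differed by 1.20 ± 0.28 (adjusted p = 0.0153). Plat, the tissue-type plasminogen activator, rose by log2 1.18 in C57BL/6J (adjusted p = 8.78e-06) and 0.99 in 129S6/SvEvTac (adjusted p = 0.000227), with a difference of 0.18 ± 0.18 (adjusted p = 0.578). Tpsb2, a mast cell tryptase, had 19.1, 7.12, 1.49 and 15.5 CPM in C57BL/6J AngII aortas, against 3.50, 1.06, 1.08 and 1.31 CPM in C57BL/6J control aortas, and the groups overlapped through AngII replicate 3 and control replicate 1 (log2 2.63 ± 0.62, adjusted p = 0.00344). Its effect in 129S6/SvEvTac was -0.64 ± 0.59 (adjusted p = 0.551), and the effects differed by 3.26 ± 0.85 (adjusted p = 0.0255). That difference did not pass without C57BL/6J AngII replicate 1, C57BL/6J control replicate 2, 3 or 5, or 129S6/SvEvTac AngII replicate 4 (adjusted p of 0.0518 to 0.056), and without C57BL/6J control replicate 1 the effect in C57BL/6J was 3.23.

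All 17 inducers and transcription factors on the list were tested, of which 8, Il6 included, rose and 1 fell in C57BL/6J (21.8% and 17.1% of all genes) and 3 rose and 2 fell in 129S6/SvEvTac (7.71% and 4.47%) (median log2 effects of 0.72 and 0.13). The cytokine gene Il6 had 200, 755, 846 and 453 counts in C57BL/6J AngII aortas and none in any C57BL/6J control, against totals of at most 6 counts in any 129S6/SvEvTac library. Il6 passed the filter only through the C57BL/6J AngII group, so no test of it is given, nor a fold against a group without counts. The count of 8 that rose and the median include Il6, and its place in them carries no weight. Tnf, at 0.325 to 0.823 CPM in C57BL/6J AngII and at most 0.311 CPM in any other group, also owed its test largely to that group. Runx2, a bone transcription factor known to drive Mmp13 in the mouse skeleton, had 5.51, 6.45, 4.81 and 5.79 CPM in C57BL/6J AngII aortas, against 1.29, 1.36, 2.67 and 1.79 CPM in C57BL/6J control aortas. It rose in C57BL/6J (log2 1.67 ± 0.35, adjusted p = 0.00142) and did not pass in 129S6/SvEvTac (log2 0.19 ± 0.34, adjusted p = 0.792), while the difference did not pass (adjusted p = 0.0643). It passed with DESeq2 (0.0184) and without C57BL/6J AngII replicate 3, C57BL/6J control replicate 3, or 129S6/SvEvTac AngII replicate 1 or 2 (adjusted p of 0.0423 to 0.0466). Tgfb1, the transforming growth factor that drives matrix deposition, rose by log2 0.80 in C57BL/6J (adjusted p = 6.85e-06) and 0.45 in 129S6/SvEvTac (adjusted p = 0.00322). Of the Fos and Jun genes on this list, Fos, Jun and Jund had lower means in C57BL/6J AngII than in C57BL/6J control aortas. Fosl1, Fosl2 and Junb had higher means. Jun averaged 133 CPM with AngII and 205 CPM in the C57BL/6J controls, and Junb 96.9 and 40.1 CPM. Their part in the MMP values was not tested.

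Among 8 genes for docking and clearance of MMPs, 5 rose and 2 fell in C57BL/6J (21.8% and 17.1% of all genes), and 2 rose and none fell in 129S6/SvEvTac (7.71% and 4.47%) (median log2 effects of 0.94 and 0.21). Thbs2, thrombospondin 2, which binds Mmp2 for uptake into cells, had 357, 282, 265 and 406 CPM in C57BL/6J AngII aortas, against 135, 140, 134 and 120 CPM in C57BL/6J control aortas. It rose 2.48-fold in C57BL/6J (adjusted p = 2.02e-05), did not pass in 129S6/SvEvTac (log2 0.13 ± 0.16, adjusted p = 0.664), and the effects differed by 1.18 ± 0.22 (adjusted p = 0.00596). Cav1, which encodes caveolin 1 of the membrane pits where Mmp14 is internalised, fell by 0.67 ± 0.12 on the log2 scale in C57BL/6J (adjusted p = 0.000371) and did not pass in 129S6/SvEvTac (log2 0.13 ± 0.12, adjusted p = 0.55), with a difference of -0.80 ± 0.16 (adjusted p = 0.00886). Cd44, a hyaluronan receptor that holds Mmp9 and Mmp14 at the cell surface, rose in both strains, by log2 1.62 in C57BL/6J and 0.94 in 129S6/SvEvTac, a difference of 0.68 ± 0.19 (adjusted p = 0.0368). The Cd44 difference did not pass when any of the 4 C57BL/6J control libraries, 129S6/SvEvTac AngII replicate 2 or 129S6/SvEvTac control replicate 1, 2 or 3 was left out (adjusted p of 0.0521 to 0.076).

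The substrate genes moved in both strains. Of 11 tested, 9 rose in C57BL/6J (21.8% of all genes) and 8 in 129S6/SvEvTac (7.71%), with none lower, and their median log2 effects were 1.41 and 1.23. Col3a1, a fibrillar collagen, rose 6.47-fold in C57BL/6J (adjusted p = 1.04e-06) and 3.34-fold in 129S6/SvEvTac (adjusted p = 0.000129), and the difference of 0.95 ± 0.29 did not pass (adjusted p = 0.0508). It passed with DESeq2 (0.0122), library size alone (0.0456), a filter of 1 CPM in 4 libraries (0.0442) and the replicate block (0.0269), and without C57BL/6J AngII replicate 3, 129S6/SvEvTac AngII replicate 1 or 129S6/SvEvTac control replicate 3 (0.0199 to 0.0371). Fn1, fibronectin, rose 2.66-fold in C57BL/6J (adjusted p = 1.13e-06) and 3.28-fold in 129S6/SvEvTac (adjusted p = 1.72e-06), with a difference of -0.30 ± 0.16 (adjusted p = 0.265). Vcan, the proteoglycan versican, had effects that differed between the strains, at log2 0.48 in C57BL/6J (adjusted p = 0.00136) and -0.09 in 129S6/SvEvTac (adjusted p = 0.625), a difference of 0.57 ± 0.14 (adjusted p = 0.0203).

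The 10 MMP genes did not share one pattern over the 16 libraries. Likeness was measured as the root mean square difference of mean-centred log2 CPM, where 0 means the same pattern. The closest members were Mmp2 and Mmp19 (0.46), followed by Mmp11 and Mmp15 (0.48), Mmp15 and Mmp17 (0.51) and Mmp14 and Mmp19 (0.51). Among all other named genes, the nearest to Mmp2 were Nid1 (0.18), Arhgap18 (0.24) and Ctsk (0.25), against a spread of Mmp2 around its own mean of 0.77. Nid1 encodes the basement membrane protein nidogen 1 and Ctsk the collagen-cutting protease cathepsin K. The nearest to Mmp14 were Cd14 (0.25), Tmem173 (0.28) and Il4ra (0.29), and to Mmp19 Syk (0.27), B4galnt1 (0.28) and Snai1 (0.28), with own spreads of 0.96 and 1.03. Cd14 and Syk are expressed by myeloid cells. For Mmp17 they were Sync (0.16), Wnt16 (0.16) and Cobl (0.17), against its own spread of 0.54.

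The less abundant genes had looser neighbours. For Mmp12 the nearest genes were Itgax (0.96), a macrophage and dendritic cell integrin, Il1b (1.18) and Bcl2a1b (1.21), against its own spread of 2.53, and for Mmp13 they were Kcnf1 (0.82), Aoah (0.91) and Acan (0.95), against 2.20. For Mmp3 they were Atp6v0c (0.39), Tvp23a (0.41) and Rplp0 (0.43), against 1.06, and for Mmp9 Rps3a1 (0.46), Kdm8 (0.49) and Fbxl21 (0.50), against 0.86. Mmp11 was nearest to Atp6v0b, Vps33b and Cutc (0.16, 0.16 and 0.17, own spread 0.22), and Mmp15 to Dyrk1b, S100a1 and Fbxo21 (0.20 each, own spread 0.37). Mmp11 and Mmp15, which were called in none of the 5 comparisons, thus had little spread for a likeness to rest on. All libraries are shared between these genes, so the values are descriptive.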

How the data were processed

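Per the labels' protocols, the authors made the estimated counts per gene from RNA of crushed aortas with HISAT2 (alignment to GRCm38, mm10) and StringTie (quantification on Gencode). DESeq2 1.26.0 and R 3.6.2 are named in the submitters' processing notes, with no role stated. The deposited expected counts are already whole numbers. Neither the Gencode release, nor the step from StringTie to counts, nor the strand setting is given in the sources used, so antisense overlaps are uncertain. GRCm38 is a C57BL/6J assembly, and whether 129S6/SvEvTac reads aligned equally well was not tested.

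Gene names and exon lengths came from GENCODE M21, matched by ID for 52489 of 52636 genes (147 unmatched). The test was that of edgeR 4.0.16 (R 4.3.3), after filterByExpr at minimum count 10 and TMM scaling: a robust quasi-likelihood F test with 1 mean per group over all 16 libraries, Benjamini-Hochberg adjusted over 17125 genes with a threshold of 0.05. The method was tested on simulated data. CPM are per TMM-adjusted total, and log2 CPM for likeness used a prior count of 2. Limits from a count of 0 (3 counts) cover counting error only. No 2 replicates agreed within sampling noise (lowest chi-square per degree of freedom 40.9 over 24 pairs).

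Alternatives were RLE or library-size scaling, no filter, a filter of 1 CPM in 4 libraries, DESeq2 1.42.0, only the groups compared, a replicate block, each library left out, and longest transcripts as lengths. Named genes were the 10 members, every TIMP, up to 4 genes per list with the smallest p in the difference of effects and in either AngII comparison, and the 3 named genes nearest to each member. The members and all lists were chosen with earlier results of these data known, so no list count is independent evidence.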

Additional observations from a re-analysis of the deposited data

Results flagged for a closer look

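Of 40 sets of 4 libraries (10 genes in 4 groups), 3 held a library whose gap to the nearest companion passed the 95% critical value of Dixon's test, as chance gives in about 5% of groups. Mmp2 was at 694 CPM in C57BL/6J AngII replicate 5, against 368 to 395 CPM in the other 3 libraries of that group, and at 110 CPM in C57BL/6J control replicate 2, against 129 to 130 CPM in the other 3. Mmp12 was at 2.87 CPM in C57BL/6J control replicate 3, against 1.19 to 1.37 CPM in the other 3. The same library had the highest sum of neutrophil markers of all 16, at 36.5 CPM. It also had the highest macrophage sum (575 CPM) and T and B cell sum (7.40 CPM) of its group, and the part of these cells was not tested.

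The AngII effect differed between the strains, by the test of the difference itself, for 4 genes. On the log2 scale, C57BL/6J minus 129S6/SvEvTac, the differences were 1.05 for Mmp2, 1.54 for Mmp14, -1.15 for Mmp17 and 2.06 for Mmp19.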

How the results depend on the processing

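Over the 10 genes, 5 comparisons and their alternatives, 1108 values kept direction and side of the threshold, 19 newly passed it, 49 no longer passed it and 13 changed sign. The signs that changed were all of values that had not passed. The AngII effect on Mmp3 in 129S6/SvEvTac was 0.07 and became -0.0901 with library size alone, with a range of -0.0924 to 0.221 when each library was left out. That on Mmp11 was -0.04, with a range of -0.161 to 0.0497. The difference of effects for Mmp12 was -0.37 (range -1.64 to 0.0508, and 0.265 with both C57BL/6J AngII 1 and 129S6/SvEvTac AngII 5 omitted, chosen after seeing the data) and that for Mmp15 was 0.10 (range -0.125 to 0.249, and -0.0704 with both omitted). With both omitted, Mmp3 passed in the C57BL/6J comparison (adjusted p = 0.0347), and Mmp2 in the difference of effects (0.0502) and Mmp12 between the control groups (0.0502) did not.

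Called MMP genes numbered 6 for AngII in C57BL/6J (4 to 7 with each library left out), 3 for AngII in 129S6/SvEvTac (1 to 4), 4 for the difference of effects (3 to 4), 8 between the strains with AngII (7 to 9) and 4 between the control groups (2 to 5, and 7 with only the groups compared). Over all genes, the counts were 6664 (5740 to 7173), 2087 (1402 to 2634), 1706 (1039 to 2990), 5367 (4478 to 6088) and 1783 (1354 to 2118). DESeq2 gave 2643 for the difference of effects, and omitting both libraries gave 1049. Only the groups compared gave 2772 between the control groups. The cause of these shifts was not tested.

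Deviations of same-numbered libraries correlated at -0.06 to 0.15. Differently numbered libraries were not compared, so whether replicate numbers pair the samples is not known. With the replicate block, Mmp9 for AngII in 129S6/SvEvTac (adjusted p = 0.0675) and Mmp12 between the control groups (0.0507) were not called, and called MMP genes numbered 2 and 3 in these comparisons, while over all genes 1426 and 1383 were called. Library size alone moved the median log2 AngII effect of all genes in 129S6/SvEvTac to -0.16 and the share of calls that were higher to 25.2%, against 63.3% with TMM. The shares were 45.4% against 56.1% for AngII in C57BL/6J and 65.2% against 53.6% for the difference. With the longest transcript as length, 29 of 40 length-scaled levels moved by less than 1 SD.

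Mmp13 in 129S6/SvEvTac and Mmp12 in its controls are limited by depth, and 4 libraries per group limit all values.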

Other observations

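Marker lists that belong to no comparison above gave the following summed levels. Osteochondrogenic markers (8 genes, Bglap without counts) summed to 161 to 428 CPM in C57BL/6J AngII and 76.8 to 98.2 CPM in C57BL/6J control aortas, and to 30.4 to 35.3 CPM in 129S6/SvEvTac AngII and 28.6 to 36.7 CPM in 129S6/SvEvTac control aortas. Of its 7 tested genes, 3 rose with AngII in C57BL/6J (21.8% of all genes) and 1 in 129S6/SvEvTac (7.71%). Endothelial markers (8 genes) summed to 834 to 1062 CPM in C57BL/6J AngII and 977 to 1239 CPM in C57BL/6J control aortas, and to 749 to 2386 CPM in 129S6/SvEvTac AngII and 662 to 1109 CPM in 129S6/SvEvTac control aortas. Of these 8 genes, 2 rose in each strain, against the same shares of all genes. Markers of T and B cells reached at most 11.5 CPM in any library and those of skeletal muscle at most 17.8 CPM.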
